A study of Mus musculus with 11 samples.

Results

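Spots of 2 mouse liver sections taken 36 h after acetaminophen (paracetamol, APAP) were compared by how much periportal hepatocyte RNA they held. Spots under the tissue that held 800 genes or more, and no more than 20% mitochondrial transcripts among their unique molecular identifiers (UMIs, counted RNA molecules), were ranked within each section by an index, the UMIs per 10000 of Cyp2f2, Hal, Sds and Hsd17b13. The top 20% of a section were called periportal and the bottom 20% portal-poor. Section 36 h A gave 394 spots per class from 1970 and section 36 h B gave 407 from 2035, so both classes together held 1602 spots of the 4005 ranked at 36 h and of 25136 passing spots in the series. The members were chosen by these 4 genes, which were left out of every finding.

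The series followed liver regeneration over 11 Visium sections, 3 labelled Uninjured (0 h) and 2, 2 and 4 labelled POD at 24 h, 36 h and 48 h. Per the study's methods, the injured mice were fasted and then given APAP intraperitoneally, mice were 8 to 12 weeks old and male unless stated otherwise, wild-type animals were C57BL/6JCrl, and unfixed livers were snap-frozen and cryosectioned. No genetic allele is given for these sections. The methods count a single mouse per timepoint for this assay and the labels do not say which mouse a section came from, so n counts sections, p-values cover the spread between sections, and mouse and time cannot be told apart.

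The liver lobule is zoned from the portal vein, where oxygen-rich blood enters, to the central vein. Periportal hepatocytes are known for urea synthesis, amino acid breakdown and gluconeogenesis. Pericentral hepatocytes are known for glutamine synthesis and for the cytochrome P450 enzymes that turn APAP into a toxic metabolite, and Wnt ligands from central vein endothelium maintain their genes. APAP therefore kills hepatocytes around the central vein, and macrophages, neutrophils and myofibroblasts gather in the dead area while it is cleared. A Visium spot covers several cells, so a sum over spots mixes hepatocytes with these other cells.

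The 4 index genes describe the classes and carry no test. In 36 h A, Cyp2f2, a periportal P450, stood at 975 UMIs per 1000000 in periportal and 210 in portal-poor spots, and in 36 h B at 533 and 211. Hal, which opens histidine breakdown, stood at 418 and 113 in 36 h A and at 371 and 150 in 36 h B. Sds, which deaminates serine, stood at 603 and 123 in 36 h A but at 2490 and 674 in 36 h B. Sds thus made up 18.3% of the periportal index UMIs of 36 h A and 57.9% of those of 36 h B. Hsd17b13, a lipid droplet protein, stood at 1298 and 317 and at 907 and 282. The last spot inside the periportal class of 36 h A had an index of 28.93 and the next 28.85, and the lower edge lay between 10.14 and 10.13. In 36 h B these edges were 33.20 and 33.17, and 16.412 and 16.411, so the portal-poor spots of 36 h B reached higher index values than those of 36 h A.

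**Figure D1:**
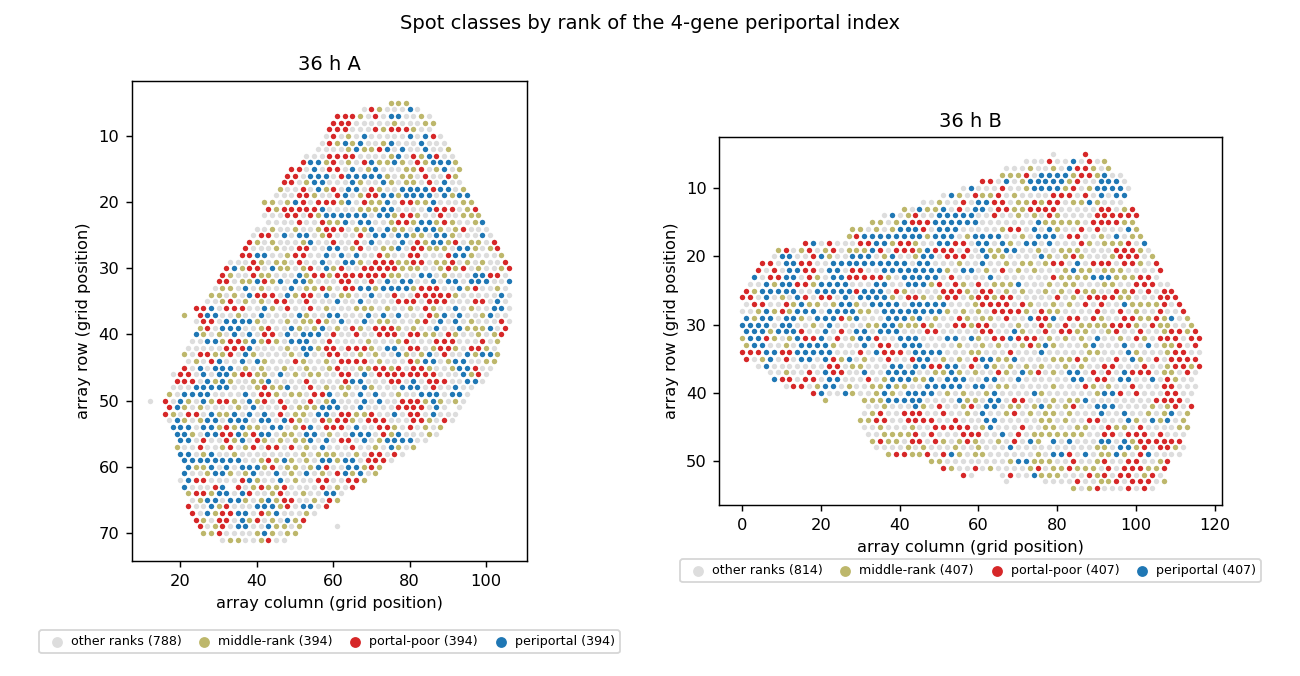
Grid position (array column and row, no unit) of every passing spot of 36 h A and 36 h B. Blue marks periportal, red portal-poor and olive middle-rank spots (40% to 60% of the ranking), grey all other ranks. Spots of a class lie together in patches, and 36 h B has a broad blue area at low array columns.

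On the hexagonal grid, 35.3% of the neighbours of a periportal spot were periportal in 36 h A and 47.9% in 36 h B, while 5.61% and 6.64% were portal-poor. Of the neighbours of portal-poor spots, 38.3% and 37.1% were portal-poor. Counted in steps away from the nearest portal-poor spot, the share of periportal spots in 36 h A was 12.4% at 1 step, 43.9% at 2 and 27.0% at 3. In 36 h B it was 14.5%, 37.9% and 41.0%. These shares describe the index itself. The median spot held 14456.5 UMIs in the periportal and 17225.5 in the portal-poor class of 36 h A, and 17517 and 16756 in 36 h B, so depth did not differ the same way in both sections. Nor did the median share of mitochondrial UMIs, 1.81% and 1.42% in 36 h A and 1.90% and 4.15% in 36 h B. Visium barcodes are positions printed on every slide, and 1398 of the passing barcodes occur in both sections. The share of all UMIs from Alb, Ttr, Trf, Hp, Hnf4a and Apoa1, general hepatocyte genes, was 11.2% in periportal and 8.33% in portal-poor spots of 36 h A, and 13.7% and 9.90% in 36 h B.

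Beyond the index genes, periportal spots were richer in transcripts of amino acid breakdown, urea synthesis, gluconeogenesis and plasma proteins. Portal-poor spots were richer in transcripts of macrophages, neutrophils, myofibroblasts and red blood cells, in cytoskeletal and injury genes and in DNA replication genes. The pericentral P450 genes Cyp2e1 and Cyp2a5 were also lower in periportal spots, but most genes of the pericentral lists were not called lower. UMIs were summed per section and class and tested in edgeR's quasi-likelihood model with Benjamini-Hochberg adjustment, with section as a block and all 11 sections in the fit. Of 13553 genes tested, 2199 (16.2%) were higher and 2158 (15.9%) lower in periportal spots at an adjusted p under 0.05. Of these, 336 and 920 differed at least 2-fold, and 4326 of the 4357 called genes had the same sign in both sections. The calls rest on these same sections, so this agreement is no independent support. The share of same-sign genes among all genes tested was not counted. Under total-count scaling in place of edgeR's TMM factors, 877 genes were higher and 5107 lower, so that 14.7% of calls in place of 50.5% were higher, and the median gene stood at -0.35 in place of -0.02 on the log2 scale. All differences below are therefore relative to the TMM-scaled total. When a spot was classed by the index of its neighbours, leaving its own UMIs unused, 2111 genes were higher and 2082 lower, with 83.9% and 81.6% of the calls above among them. When the ranking was restricted to spots at or above the section's median share of general hepatocyte UMIs, 352 were higher and 320 lower. Its classes held 197 spots in 36 h A and 203 in 36 h B, in place of 394 and 407. Of its portal-poor spots, 24 and 61 had been portal-poor in the whole ranking. Fewer spots, other spots and hepatocyte content cannot be told apart in the calls lost in these hepatocyte-rich spots. Portal-poor spots held less hepatocyte RNA and more RNA of other cells, and in such sums fewer cells of a type and less RNA per cell cannot be told apart.

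**Figure D2:**
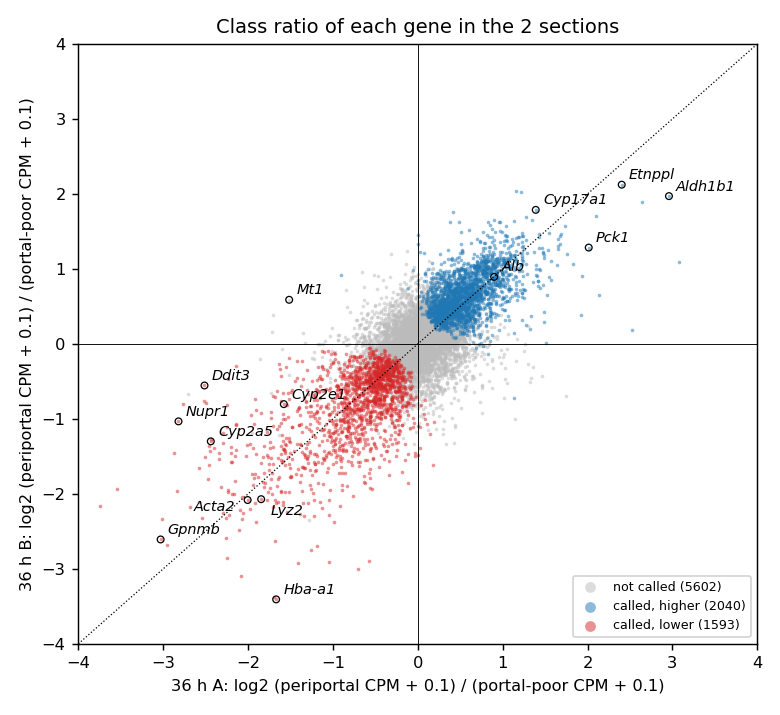
Log2 ratio of periportal to portal-poor CPM (0.1 added to each) in 36 h A on the x axis and 36 h B on the y axis, for 9235 genes with a mean of at least 5 CPM. Each point is a gene; 2040 called higher are blue, 1593 called lower are red, and grey genes were not called. The dotted line marks equal ratios. Mt1 differs in sign between the sections, and Nupr1 and Ddit3 fell further in 36 h A than in 36 h B.

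The strongest rises joined amino acid, lipid and glucose metabolism. Aldh1b1, a mitochondrial aldehyde dehydrogenase (chr4:45799022-45804604, plus strand, GRCm38), stood at 235 CPM (UMIs per 1000000 of the TMM-scaled class total) in periportal and 30.1 CPM in portal-poor spots of 36 h A, and at 250 and 63.7 CPM in 36 h B. Both periportal sums lay above both portal-poor sums, and the fitted log2 fold change was 2.43 (SE 0.17, edgeR adjusted p = 2.97e-07). Etnppl, which degrades phosphoethanolamine, stood at 132 and 24.9 CPM in 36 h A and at 301 and 69.1 CPM in 36 h B (log2 fold change 2.25, SE 0.11). Hsd17b6, a steroid dehydrogenase, stood at 287 and 46.0 CPM and at 114 and 30.5 CPM (2.30, SE 0.15). For these genes too the classes did not overlap between sections. Mfsd2a, a transporter of lysophospholipids, stood at 42.3 and 9.81 CPM in 36 h A and at 235 and 71.7 CPM in 36 h B. Its ratio was alike in both sections while its level was several-fold higher in 36 h B, so the portal-poor spots of 36 h B exceeded the periportal spots of 36 h A. The same held for Nnmt, which methylates nicotinamide, at 82.3 and 28.1 CPM in 36 h A and 561 and 202 CPM in 36 h B. Cyp17a1, a steroidogenic P450, was rare in 36 h A at 5.98 and 2.22 CPM and stood at 77.5 and 22.4 CPM in 36 h B.

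Pck1, the rate-limiting enzyme of gluconeogenesis, was the most abundant of the 12 genes with the largest rises. It stood at 1204 and 298 CPM in 36 h A and at 2041 and 838 CPM in 36 h B, a ratio of 4.04 in the former and 2.44 in the latter (log2 fold change 1.64, SE 0.19, edgeR adjusted p = 3.02e-05). G6pc, the catalytic subunit of glucose-6-phosphatase, stood at 93.5 and 29.7 CPM and at 140 and 56.5 CPM (1.47, SE 0.21). Gls2, the liver glutaminase, stood at 527 and 163 CPM and at 483 and 175 CPM (1.58, SE 0.11). Rida, a deaminase of reactive imines, stood at 1070 and 334 CPM in 36 h A and at 781 and 288 CPM in 36 h B. Gldc of the glycine cleavage system (149 and 43.9 CPM, 166 and 72.3 CPM) and the cystine transporter subunit Slc3a1 (51.5 and 16.0 CPM, 85.7 and 33.9 CPM) completed the 12. For Pck1, G6pc, Gls2, Rida and Gldc each periportal sum exceeded both portal-poor sums, which the choice of these genes likewise favours. Within hepatocyte-rich spots the rises were smaller, 1.96 on the log2 scale for Aldh1b1, 0.80 for Pck1 and 0.84 for Gls2, and Nnmt and G6pc no longer passed (edgeR adjusted p = 0.051 and 0.23).

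**Figure D3:**
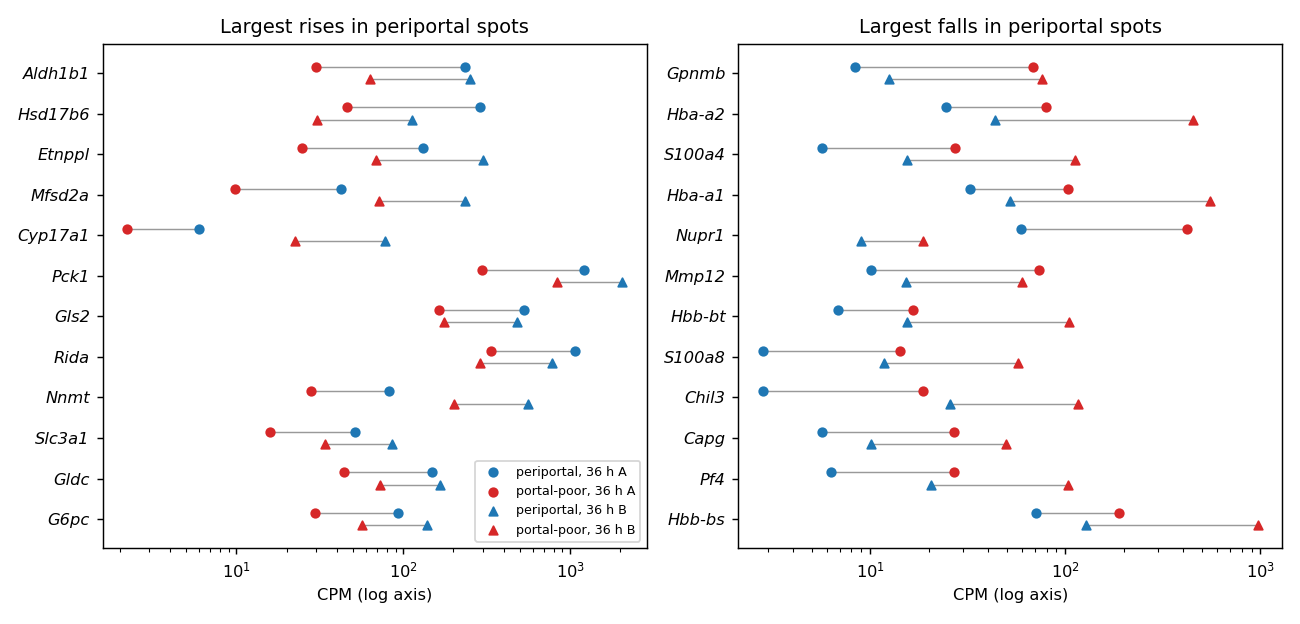
CPM on a log axis in periportal (blue) and portal-poor (red) spots of 36 h A (circles) and 36 h B (triangles) for the 12 genes with the largest rises (left) and the 12 with the largest falls (right). Grey lines join the classes of a section. The genes were chosen to have the same sign in both sections. Every line of the left panel therefore had to run to a higher, and every line of the right panel to a lower, periportal value.

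The strongest falls were of genes of phagocytes and of blood. Gpnmb, a glycoprotein of phagocytic macrophages (chr6:49036546-49070929, plus strand, GRCm38), stood at 8.30 CPM in periportal and 68.5 CPM in portal-poor spots of 36 h A, and at 12.4 and 76.3 CPM in 36 h B. The classes did not overlap, which the choice of these genes favours, and the log2 fold change was -2.81 (SE 0.15, edgeR adjusted p = 4.67e-11). Mmp12, the macrophage elastase, stood at 10.1 and 73.2 CPM and at 15.2 and 59.7 CPM (-2.38, SE 0.17). S100a4, a calcium-binding protein of motile cells, stood at 5.64 and 27.2 CPM in 36 h A and at 15.4 and 112 CPM in 36 h B (-2.69, SE 0.18). Capg, which caps actin filaments, stood at 5.64 and 26.9 CPM and at 10.1 and 49.4 CPM, again with no overlap between the classes. S100a8, a subunit of the neutrophil protein calprotectin, stood at 2.82 and 14.2 CPM and at 11.8 and 57.0 CPM, and without 36 h B its call was lost (edgeR adjusted p = 0.053). Chil3, a secreted macrophage lectin, stood at 2.82 and 18.7 CPM in 36 h A and at 25.6 and 116 CPM in 36 h B. The chemokine Pf4 stood at 6.31 and 26.9 CPM and at 20.5 and 104 CPM. The other 6 of these 7 genes passed without either section of 36 h. All 7 also passed within hepatocyte-rich spots, with log2 fold changes from -1.50 for S100a4 to -0.77 for Chil3.

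Nupr1, a stress-induced chromatin protein, also fell, but unequally. It stood at 59.4 and 420 CPM in 36 h A, a 7.06-fold fall, and at 9.01 and 18.5 CPM in 36 h B, a 2.05-fold fall, so that the portal-poor spots of 36 h B lay below the periportal spots of 36 h A. The haemoglobin genes fell more in 36 h B. Hba-a1 stood at 32.5 and 104 CPM in 36 h A and at 52.0 and 553 CPM in 36 h B, Hba-a2 at 24.4 and 79.5 CPM and at 43.5 and 452 CPM. Hbb-bs stood at 70.4 and 187 CPM and at 127 and 968 CPM, Hbb-bt at 6.81 and 16.5 CPM and at 15.4 and 104 CPM. Without 36 h B none of the 4 passed, with log2 fold changes from -1.27 for Hbb-bt to -1.71 for Hba-a2 (edgeR adjusted p = 0.13 to 0.20). Hba-a1 and Hba-a2 are near-identical, so their split is uncertain.

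Promoters from RefSeq (GRCm38.p6, 250 bases before to 50 after a gene's start) were found for all 12 genes with the largest falls. Among the 12 motifs searched on both strands was GAGGAAGT, a core bound by the myeloid factor PU.1. For this motif only those of the genes with a single promoter were counted, so the count is no frequency among the 12 genes. GAGGAAGT lay in 3 such promoters, which are shown since they belong to genes of the same fall. They are S100a4 (chr3:90603520-90603819), S100a8 (chr3:90668821-90669120) and Pf4 (chr5:90772185-90772484), all on the plus strand and written 5′ to 3′ with the motif, here on the opposite strand, in capitals.
S100a4: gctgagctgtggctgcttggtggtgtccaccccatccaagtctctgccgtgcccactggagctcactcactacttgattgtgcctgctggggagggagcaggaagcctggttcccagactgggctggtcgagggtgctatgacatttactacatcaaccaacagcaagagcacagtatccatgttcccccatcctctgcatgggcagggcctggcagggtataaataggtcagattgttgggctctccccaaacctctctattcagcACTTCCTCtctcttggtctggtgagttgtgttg
S100a8: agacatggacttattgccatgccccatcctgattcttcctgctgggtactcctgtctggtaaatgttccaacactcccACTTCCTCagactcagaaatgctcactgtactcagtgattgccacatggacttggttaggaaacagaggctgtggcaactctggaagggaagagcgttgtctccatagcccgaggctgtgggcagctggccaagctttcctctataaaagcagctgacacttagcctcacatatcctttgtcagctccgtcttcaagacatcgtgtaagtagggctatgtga
Pf4: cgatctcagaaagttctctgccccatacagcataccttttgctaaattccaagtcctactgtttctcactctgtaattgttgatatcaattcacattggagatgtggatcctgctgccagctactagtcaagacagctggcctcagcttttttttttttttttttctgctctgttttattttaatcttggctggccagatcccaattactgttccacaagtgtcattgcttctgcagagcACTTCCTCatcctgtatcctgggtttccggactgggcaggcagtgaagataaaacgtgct
The match began 17 bases after the start in S100a4, and 172 and 10 bases before it in S100a8 and Pf4. The motif lay in 3.20% of all 32851 promoters. Counted instead by gene, with a match in any promoter of a gene, it was found for 3.83% of tested genes with a promoter. The same count gave 10 of 245 genes (4.08%) at least 2-fold higher in periportal spots and 61 of 683 (8.93%) at least 2-fold lower. Some of the other motifs were also more frequent than among tested genes. TATAAA, the TATA box, lay in the promoters of 9.64% of tested, 15.9% of higher and 15.8% of lower genes, and TGANTCA, bound by AP-1, in those of 6.75%, 10.2% and 10.7%. A match is a match of letters and was not tested as a binding site.

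The periportal metabolic lists moved as groups. All 8 urea cycle genes were higher (median log2 fold change 0.96, against -0.02 for all genes tested), as were all 7 of gluconeogenesis (1.09) and 14 of 15 of histidine, glycine, serine and tyrosine catabolism (0.98). Asl, which releases arginine from argininosuccinate, stood at 806 and 393 CPM in 36 h A and at 1695 and 627 CPM in 36 h B (log2 fold change 1.24, SE 0.11). Ass1, which forms argininosuccinate, stood at 1026 and 440 CPM and at 1777 and 856 CPM (1.14, SE 0.10). Cps1, the entry enzyme of the cycle, stood at 1757 and 1009 CPM and at 2503 and 1217 CPM (0.92, SE 0.11). For each of the 3 genes both sections moved alike, and the portal-poor spots of 36 h B lay below the periportal spots of 36 h A for Asl, Ass1 and Cps1. They were named for a large change or a high level within the list. Fbp1, the fructose-bisphosphatase of gluconeogenesis, stood at 808 and 344 CPM and at 821 and 364 CPM, nearly the same levels in both sections. Uroc1, the next step after Hal in histidine breakdown, stood at 213 and 91.0 CPM and at 281 and 109 CPM, and Hpd of tyrosine breakdown at 1160 and 694 CPM and at 2069 and 901 CPM. Within hepatocyte-rich spots 4 of the 8 urea cycle genes, 3 of 7 gluconeogenesis genes and 9 of 15 of the catabolic genes were called higher, with medians of 0.27, 0.37 and 0.38. Cps1, Hpd and Fbp1 were then not called (edgeR adjusted p = 0.22, 0.18 and 0.17).

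All 8 portal genes that the study drew from its own spatial data, the index genes left out, were higher (median 1.12), which is no independent evidence since they were chosen on such sections. Pigr, the epithelial immunoglobulin receptor, stood at 604 and 204 CPM in 36 h A and at 721 and 336 CPM in 36 h B (1.33, SE 0.10). General hepatocyte genes rose as well, 6 of 6 with a median of 0.67. Alb, serum albumin, stood at 63926 and 34269 CPM and at 82489 and 44393 CPM. Of 17 acute phase genes, plasma proteins the liver makes in inflammation, 13 were higher and none was lower (median 0.73). Hp, which binds free haemoglobin, stood at 10835 and 5773 CPM in 36 h A and at 15290 and 7311 CPM in 36 h B. Hpx, which binds haem, stood at 6774 and 3207 CPM and at 9155 and 4810 CPM, and Orm1 at 3767 and 1986 CPM and at 4429 and 2296 CPM. Saa1, an acute phase apolipoprotein, stood at 1848 and 849 CPM and at 1066 and 416 CPM, and its call (edgeR adjusted p = 0.039) was lost without either section of 36 h (0.14 without 36 h A and 0.26 without 36 h B). Within hepatocyte-rich spots 1 of 6 hepatocyte genes and 5 of 17 acute phase genes were called higher, and Alb was not (0.18, edgeR adjusted p = 0.18). Hepatocyte-rich spots were chosen by the summed share of these same 6 hepatocyte genes, of which Hp is also in the acute phase list. Their smaller differences there were thus built into the choice in part, and their lost calls are no result about them. The part of hepatocyte content in the metabolic lists was not tested beyond this restriction.

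Over all spots, pericentral genes mirrored this pattern only in part. Of 12 Wnt target genes of pericentral hepatocytes, 4 were lower and none higher in periportal spots (median -0.60), and under total-count scaling 7 were lower (median -0.94). Cyp2e1, the main enzyme of APAP bioactivation, stood at 290 and 867 CPM in 36 h A and at 406 and 708 CPM in 36 h B (-1.19, SE 0.20, edgeR adjusted p = 0.0011). Oat, ornithine aminotransferase, stood at 13.9 and 42.0 CPM and at 24.1 and 38.1 CPM (-1.08, SE 0.21). Tbx3, a transcription factor, had 10 and 40 UMIs in 36 h A and 11 and 32 in 36 h B, and its call was lost without either section (edgeR adjusted p = 0.12 and 0.057). Lgr5, a receptor that strengthens Wnt signals, had 1 and 7 UMIs in 36 h A and 0 and 7 in 36 h B, too few for a fold. Glul, glutamine synthetase of the innermost pericentral hepatocytes, stood at 21.9 and 21.1 CPM in 36 h A and at 37.4 and 45.2 CPM in 36 h B and was not called (-0.14, edgeR adjusted p = 0.49).

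Of 11 genes of drug-metabolising P450 enzymes, 3 were higher and 3 lower (median -0.28, range -1.93 to 1.84 on the log2 scale). Cyp2a5, which oxidises coumarin and nicotine, stood at 77.2 and 419 CPM in 36 h A and at 43.2 and 106 CPM in 36 h B (-1.93, SE 0.35), and its call was lost without 36 h A (-1.28, edgeR adjusted p = 0.075). Cyp3a25, another family member, went the other way at 406 and 195 CPM and at 220 and 91.1 CPM (1.16, SE 0.11). Of the study's 23 central genes, again drawn on its spatial data, 7 were higher and 5 lower, with a median of 0.24, while total-count scaling gave 1 higher and 8 lower and a median of -0.10. Mgst1, a microsomal glutathione transferase, was higher at 3428 and 2582 CPM and at 2758 and 1718 CPM (0.55, SE 0.12). Cyp2c29, a P450, was lower at 40.8 and 96.9 CPM and at 43.3 and 61.1 CPM (-0.88, SE 0.28). The secreted factor Lect2 (61.9 and 192 CPM, 154 and 185 CPM) and the urinary protein gene Mup11 (189 and 444 CPM, 49.5 and 79.2 CPM) had adjusted p-values of 0.047 and 0.048 in edgeR. Calls of Cyp2c29 and Mup11 were lost without either 36 h section (0.42 and 0.050, 0.40 and 0.11), and that of Lect2 without 36 h A (0.36), and reads of Mup11 can be shared with its many near-identical copies. Within hepatocyte-rich spots none of the 23 central genes was higher and 10 were lower (median -0.44), and of the 10 P450 genes tested there 1 was higher and 6 lower (median -1.11). Cyp2e1 then fell by 1.80 on the log2 scale, more than in all spots. In that restricted ranking, 24 of the 197 portal-poor spots of 36 h A and 61 of 203 of 36 h B had been portal-poor in the whole ranking.

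Lipid genes rose in part, with sections far apart in level. Of 15 genes of fatty acid oxidation and ketogenesis, 10 were higher and 1 lower (median 0.26, -0.08 under total-count scaling). Ehhadh, a peroxisomal enzyme, stood at 74.7 and 31.9 CPM in 36 h A and at 37.4 and 23.2 CPM in 36 h B (0.99, SE 0.15). The member that fell was Cyp4a10, a fatty acid hydroxylase, at 6.31 and 20.4 CPM and at 34.9 and 57.1 CPM (-0.99, SE 0.19). Of 14 genes of cholesterol synthesis and lipogenesis 8 were higher and none lower (median 0.49), against 3 and 2 under total-count scaling (median 0.16), among them the regulator Srebf1 at 261 and 133 CPM in 36 h A and 73.4 and 41.5 CPM in 36 h B. Scd1, a fatty acid desaturase and the most abundant of the list, stood at 4149 and 2401 CPM in 36 h A and at 78.9 and 75.8 CPM in 36 h B, and was not called (0.47, edgeR adjusted p = 0.30). The 14 genes summed to 6533 and 4155 CPM in 36 h A and to 979 and 765 CPM in 36 h B. The labels do not say whether the 2 sections came from the same mouse.

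Oxidative stress genes were mostly lower in periportal spots, and several stress genes differed between the sections. Of 12 genes of glutathione metabolism and the oxidative stress factor NRF2, 8 were lower and 1 higher (median -0.84). Hmox1, haem oxygenase, stood at 17.9 and 42.0 CPM in 36 h A and at 19.4 and 82.6 CPM in 36 h B (-1.70, SE 0.26). Srxn1, sulfiredoxin, stood at 51.0 and 199 CPM and at 65.5 and 127 CPM (-1.45, SE 0.21). Mt1, a metallothionein and the most abundant of the list, went opposite ways, at 806 and 2306 CPM in 36 h A and at 15698 and 10442 CPM in 36 h B, and was not called (-0.45, edgeR adjusted p = 0.60). Of 11 genes of endoplasmic reticulum stress and ATF4, 4 were lower, 1 was higher and 6 were not called, and the list median was -0.65 in 36 h A and 0.04 in 36 h B. Herpud1, the higher one, helps clear misfolded proteins from the endoplasmic reticulum and stood at 681 and 473 CPM and at 626 and 331 CPM (0.72, SE 0.11). Atf3, a stress transcription factor, stood at 8.13 and 40.9 CPM and at 3.26 and 12.5 CPM (-2.21, SE 0.18). Ddit3, which codes for CHOP, stood at 42.2 and 241 CPM in 36 h A and at 14.4 and 21.3 CPM in 36 h B (-1.90, SE 0.43), and Trib3, a CHOP target, at 15.3 and 43.3 CPM and at 6.99 and 11.002 CPM. Without 36 h A neither Ddit3 (-0.54, edgeR adjusted p = 0.43) nor Trib3 (-0.63, edgeR adjusted p = 0.17) passed.

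Of 11 immediate early genes 8 were lower and none higher (median -1.20). Klf6, an injury-induced transcription factor, stood at 7.30 and 19.4 CPM in 36 h A and at 17.5 and 37.3 CPM in 36 h B, and Ier3 at 2.82 and 10.9 CPM and at 9.01 and 16.7 CPM. Neither passed within hepatocyte-rich spots (edgeR adjusted p = 0.47 and 0.19). Of 13 hypoxia and glycolysis genes tested, 6 were lower and 2 higher (median -0.64). The sections differed, with a list median of -0.09 in 36 h A and -0.93 in 36 h B. Pkm, the pyruvate kinase of leukocytes and growing cells, stood at 56.3 and 142 CPM and at 90.1 and 284 CPM (-1.51, SE 0.11). Ndrg1, a hypoxia-induced gene, stood at 9.63 and 29.2 CPM and at 20.3 and 38.8 CPM (-1.20, SE 0.27), and its call was lost without 36 h A (-0.91, edgeR adjusted p = 0.081).

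Cytoskeletal genes fell as a group. Of 18 genes of the cytoskeleton and injured epithelium, 16 were lower and 1 higher (median -1.13). The log2 fold changes of the list ran from -2.03 to 2.44, so its largest single change was a rise. Anxa2, an annexin by which the study names migratory hepatocytes and which leukocytes, mesenchyme and endothelium also make, stood at 28.6 and 146 CPM in 36 h A and at 101 and 291 CPM in 36 h B (-1.88, SE 0.17, edgeR adjusted p = 1.48e-06). Sprr1a, a protein of stressed epithelia, stood at 12.9 and 95.6 CPM and at 38.5 and 106 CPM (-2.03, SE 0.31). Anxa1 stood at 5.64 and 20.3 CPM and at 11.03 and 39.8 CPM, and beta-actin (Actb), the most abundant of the list, at 944 and 1443 CPM and at 1173 and 2346 CPM. Anxa2 and Sprr1a were 5-fold and more lower in 36 h A and under 3-fold lower in 36 h B. Within hepatocyte-rich spots 14 of the 18 were still lower (median -0.57), Anxa2 by 1.10 and Sprr1a by 1.37 on the log2 scale. The study lists a signature of human migratory hepatocytes, of which 43 genes were matched to mouse genes by name. Of these, 41 were tested, and 21 were lower and 2 higher (median -0.52). Within hepatocyte-rich spots 2 of 38 tested were lower and none was higher.

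DNA replication genes were lower in periportal spots. Of 20 genes of G1 and S phase 14 were lower and none higher (median -0.91). Pcna, the replication clamp, stood at 26.2 and 37.6 CPM in 36 h A and at 27.0 and 56.6 CPM in 36 h B (-0.81, SE 0.13). Mcm5, a subunit of the replicative helicase, stood at 11.5 and 17.9 CPM and at 8.70 and 29.8 CPM, and Ccne1, cyclin E, at 2.82 and 5.37 CPM and at 2.48 and 6.80 CPM. Both fell further in 36 h B, and without it neither passed (-0.64, edgeR adjusted p = 0.063, and -0.93, edgeR adjusted p = 0.10). Of 15 genes of G2 and mitosis 2 were lower and 13 were not called, no larger a share than the 15.9% lower of all genes tested. Top2a, a topoisomerase of dividing cells, had 18 and 59 UMIs in 36 h A and 16 and 75 in 36 h B, and Ccna2, cyclin A, 5 and 19 and then 7 and 34. The replication calls shrank to 1 of 20 within hepatocyte-rich spots, and which cells of a spot carried these transcripts was not tested.

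Markers of recruited leukocytes were lower in periportal spots as a group. All 11 recruited macrophage markers were lower in periportal spots (median -2.28), and their summed level was 235 CPM in periportal and 800 CPM in portal-poor spots of 36 h A and 341 and 1155 CPM in 36 h B. Lyz2, lysozyme of myeloid cells, stood at 105 and 379 CPM and at 117 and 494 CPM (-1.96, SE 0.15). Ccr2, the chemokine receptor of inflammatory monocytes, had 14 and 87 UMIs in 36 h A and 13 and 146 in 36 h B (-2.69, SE 0.31). The recruited macrophage list stayed at 10 of 11 without 36 h A and without 36 h B, and at 5 of 11 within hepatocyte-rich spots (median -0.77). Of 6 neutrophil markers 5 were lower (median -1.93), S100a9 at 6.64 and 17.3 CPM and at 10.9 and 42.6 CPM. All 6 were detected in both portal-poor sums, while 2 were at 0 in the periportal spots of 36 h A.

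Resident Kupffer cell markers differed less. Of 8 markers 5 were lower and none higher (median -0.49), and their summed level was 674 and 770 CPM in 36 h A and 910 and 1499 CPM in 36 h B. C1qb, a complement subunit, stood at 132 and 157 CPM in 36 h A and at 166 and 336 CPM in 36 h B, and Marco, a scavenger receptor, at 112 and 172 CPM and at 189 and 264 CPM. C1qb lost its call without 36 h B (-0.25, edgeR adjusted p = 0.19) and Marco without 36 h A (-0.46, edgeR adjusted p = 0.070). Without 36 h B, 2 of the 8 markers were called higher and 1 lower.

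All 7 myofibroblast markers were lower in periportal spots (median -1.96), with sums of 83.2 and 260 CPM in 36 h A and 225 and 779 CPM in 36 h B. Acta2, smooth muscle actin, stood at 9.96 and 40.3 CPM and at 32.1 and 136 CPM (-2.06, SE 0.18, edgeR adjusted p = 6.91e-07). Col1a1, the main fibrillar collagen chain, stood at 10.5 and 36.0 CPM and at 32.1 and 136 CPM, and Timp1, an inhibitor of matrix proteases, at 6.31 and 28.5 CPM and at 16.1 and 57.9 CPM. Acta2 and Col1a1 stood higher in 36 h B than in 36 h A in both classes. Of 7 markers of quiescent stellate cells 2 were higher and none lower (median 0.02, -0.32 under total-count scaling), among them the collectin Colec11 at 23.7 and 13.4 CPM and at 37.6 and 16.9 CPM (1.002, SE 0.14).

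Endothelial markers went both ways. Of 9 markers of veins and arteries 3 were higher and 5 lower. The Wnt ligand Wnt2, made by central vein and sinusoidal endothelium, had 4 and 29 UMIs in 36 h A and 11 and 40 in 36 h B (-1.80, SE 0.41). Wnt9b, the other ligand of central vein endothelium, had 0 and 7 UMIs and then 4 and 29, and its call was lost without 36 h B (edgeR adjusted p = 0.068). Thbd, thrombomodulin, stood at 2.99 and 7.82 CPM and at 14.8 and 40.2 CPM (-1.43, SE 0.17), while the matrix protein gene Ltbp4 was higher at 35.2 and 22.4 CPM and at 39.3 and 30.8 CPM (0.49, SE 0.13). The call of Ltbp4 was lost without 36 h A (edgeR adjusted p = 0.12) and under total-count scaling (0.38). Of 6 sinusoidal endothelium markers 1 was higher and 3 lower. The lectin Clec4g stood at 59.8 and 38.9 CPM and at 60.3 and 32.9 CPM (0.74, SE 0.11), the hyaluronan receptor Lyve1 at 2.99 and 5.49 CPM and at 18.0 and 35.6 CPM (-0.96, SE 0.17), and the scavenger receptor Stab1 at 52.5 and 82.1 CPM and at 93.2 and 124 CPM (-0.52, SE 0.11). The call of Lyve1 was lost without 36 h B (edgeR adjusted p = 0.13) and that of Stab1 without 36 h A (0.052).

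Cell types around the portal tract and on the surface were sparse. Of 5 cholangiocyte markers tested 1 was higher, the tight junction gene Cldn7, with 22 and 5 UMIs in 36 h A and 18 and 3 in 36 h B (2.72, SE 0.73). The call was lost without either section (edgeR adjusted p = 0.10 and 0.11). The cholangiocyte list summed to 15.4 and 6.54 CPM in 36 h A and to 15.1 and 16.2 CPM in 36 h B, under 20 CPM in every class sum. All 4 erythrocyte markers were lower, with sums of 134 and 387 CPM in 36 h A and 238 and 2076 CPM in 36 h B. All 3 mesothelium markers were lower, with sums of 0.664 and 0.934 CPM in 36 h A and 4.04 and 23.6 CPM in 36 h B. Msln, mesothelin of the liver capsule, had 1 and 2 UMIs in 36 h A and 12 and 88 in 36 h B, and without 36 h B no erythrocyte or mesothelium marker was called. Of 7 lymphocyte markers tested 2 were lower, among them the immunoglobulin chain Ighm with 29 and 88 UMIs and then 8 and 30.

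Between the ends of the ranking, most of these genes changed step by step. Of the 12 genes with the largest rises, 10 fell at every step from the periportal to the portal-poor end in both sections when spots were put in 5 bins of 20% by rank, and of the 12 with the largest falls 7 rose at every step in both. These genes were chosen for the difference between the end bins of this same ranking. The share of all genes that changed at every step was not counted. Pck1 went from 1192 through 1029, 808 and 530 to 366 UMIs per 1000000 across the bins of 36 h A and from 1852 through 1581, 1344 and 1160 to 979 in 36 h B. Cyp2e1 went from 287 through 398, 748 and 1031 to 1066 in 36 h A and from 368 through 582, 660 and 757 to 828 in 36 h B. Pck1 thus fell and Cyp2e1 rose at every step in both sections. The recruited macrophage markers summed to 233, 257, 297, 575 and 984 in 36 h A, where the steep rise came in the last 2 bins, and to 309, 439, 645, 913 and 1350 in 36 h B, a more even rise. The study's central genes stayed within 16134 to 20424 in 36 h A and 11138 to 11836 in 36 h B, with no steady direction. Mt1 rose from 798 to 2835 in 36 h A and went from 14248 to 12204 in 36 h B.

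**Figure D4:**
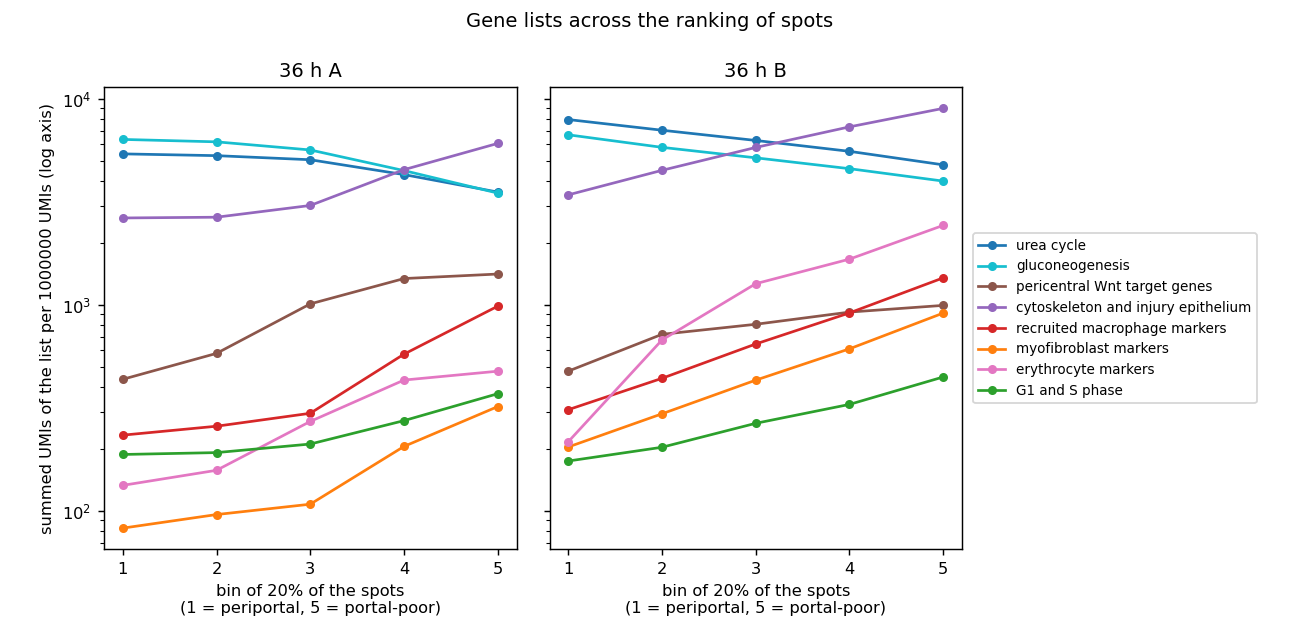
Summed UMIs of a gene list per 1000000 UMIs (log axis) in 5 bins of 20% of the spots, from periportal (1) to portal-poor (5), in 36 h A and 36 h B. Urea cycle and gluconeogenesis fall across the ranks in both sections. The recruited macrophage markers rise from 233 to 984 in 36 h A and from 309 to 1350 in 36 h B.

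A search for genes highest or lowest in the middle of the ranking (40% to 60%) found almost none. Of 13485 genes in a model with 3 classes, 1 (0.00742%) was higher in middle-rank spots than in both ends and 0 (0%) were lower than both by edgeR, against 36 and 44 at an unadjusted p under 0.05. DESeq2 was not run for this comparison. The gene was Sult2a8, a bile acid sulfotransferase, at 137, 216 and 128 CPM in the periportal, middle-rank and portal-poor spots of 36 h A and at 44.5, 57.5 and 42.1 CPM in 36 h B. The smaller of its log2 differences was 0.54 (edgeR adjusted p = 0.027), and the call was lost without 36 h A (0.37, edgeR adjusted p = 1), without any 1 of the 3 sections of 0 h and under total-count scaling. The median share of mitochondrial UMIs in middle-rank spots was 1.77% in 36 h A and 5.87% in 36 h B, against 1.42% to 4.15% in the other classes of these sections, and the part of this in Sult2a8 was not tested. With no filter on low counts 16 genes were highest in middle-rank spots, of which 11 were mitochondrial transcripts.

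The class difference at 36 h was then set against that of the same ranking at the other times. A larger difference is a more positive log2 fold change of periportal over portal-poor spots, and a smaller one a more negative. Neither word tells how far apart the classes stood. The comparisons use an interaction term in the same edgeR model and share the 36 h sections. Against 0 h, 3147 of 13553 genes (23.2%) had a larger (1728) or smaller (1419) class difference, against 24 h 392 (2.89%), with 181 larger and 211 smaller, and against 48 h 979 (7.22%), with 325 larger and 654 smaller. A time point is a single mouse per the methods, so time and mouse cannot be told apart in any of these. Within hepatocyte-rich spots 77, 39 and 17 genes were called against 0 h, 24 h and 48 h.

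Against uninjured liver, the class log2 fold change at 36 h was more positive for pericentral genes. It was more negative for macrophage, myofibroblast and cytoskeletal genes. The classes stood closer together for Glul, at -2.41 at 0 h and -0.14 at 36 h. They stood further apart for S100a4, at 0.12 at 0 h and -2.69 at 36 h. These are ratios of the classes, and the periportal level itself moved the other way for Glul and Acta2. In periportal spots of 36 h A and 36 h B, Glul stood at 21.9 and 37.4 CPM, below 0 h, and Acta2 at 9.96 and 32.1 CPM, above it. Glul stood at 89.0 to 103 CPM in periportal and 486 to 540 CPM in portal-poor spots of the 3 sections at 0 h, against 21.1 to 45.2 CPM over all classes at 36 h, a class difference larger by 2.27 on the log2 scale (SE 0.17, edgeR adjusted p = 6.94e-09). Slc1a2, a glutamate transporter of the same hepatocytes, stood at 12.1 to 15.9 CPM and 100 to 106 CPM at 0 h and had at most 6 UMIs in a class at 36 h, and its call was lost without 36 h A (1.71, edgeR adjusted p = 0.58). The urinary protein genes Mup17 and Mup9 were zoned at 0 h, Mup9 at 92.8 to 178 CPM and 395 to 845 CPM, while Mup9 at 36 h stood at 22.2 and 20.1 CPM and at 10.2 and 8.16 CPM. The call of Mup17 was lost without either section of 36 h (edgeR adjusted p = 0.093 and 0.084). All 20 of the central genes that differed from 0 h had a larger class difference at 36 h, with a list median of -1.14 at 0 h and 0.24 at 36 h, and so had 7 of 12 pericentral Wnt targets and 9 of 11 P450 genes. At the other end, Gpnmb had 0 to 2 UMIs in any class at 0 h and Mmp12 0 to 9. Acta2 stood at 3.59 to 4.96 CPM in periportal and 0.505 to 1.76 CPM in portal-poor spots at 0 h, the opposite order to 36 h (difference -3.72, SE 0.39, edgeR adjusted p = 1.0e-05). Smaller class differences than at 0 h were called for 10 of 11 recruited macrophage, 6 of 7 myofibroblast, 15 of 18 cytoskeletal and 10 of 20 G1 and S phase genes. Among all 13553 genes tested, 1728 had a larger and 1419 a smaller class difference than at 0 h.

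Against 24 h, fewer genes differed, and collagen and a peroxisomal gene were among them. Col3a1, a fibrillar collagen, stood at 24.5 and 22.9 CPM and at 12.8 and 13.2 CPM in periportal and portal-poor spots of the 24 h sections, and at 29.7 and 69.7 CPM and at 60.6 and 181 CPM at 36 h (difference -1.48, SE 0.17, edgeR adjusted p = 4.19e-05). The classes stood nearly level at 24 h and apart at 36 h. Hspa1b, an inducible heat shock protein, stood at 76.3 and 476 CPM and at 49.6 and 285 CPM at 24 h. At 36 h its levels were 7.97 and 11.2 CPM and then 2.48 and 2.60 CPM (2.20, SE 0.28). Acaa1b, a peroxisomal thiolase, stood at 125 and 365 CPM and at 94.4 and 307 CPM at 24 h, but at 1202 and 673 CPM and at 150 and 151 CPM at 36 h, with the classes of 36 h B nearly level. Akr1c19, an aldo-keto reductase, stood at 21.3 and 50.2 CPM and at 12.8 and 37.6 CPM at 24 h. At 36 h its levels were 111 and 62.5 CPM and then 57.3 and 37.9 CPM, a turn present in both sections. Of the lists, 3 of 23 central and 3 of 11 P450 genes had a larger class difference than at 24 h. A smaller one was called for 3 of 8 Kupffer cell markers and 3 of 20 G1 and S phase genes. Among all 13553 genes tested, 181 had a larger and 211 a smaller class difference than at 24 h. Without 24 h A 79 genes were called, and without 36 h B 181, in place of 392.

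Against 48 h, 654 of the 979 genes had a smaller class difference at 36 h. Pck1 stood at 1204 and 298 CPM and at 2041 and 838 CPM at 36 h, and at 537 to 1962 CPM in periportal and 75.3 to 325 CPM in portal-poor spots of the 4 sections at 48 h (difference -1.32, SE 0.23, edgeR adjusted p = 0.0054). Both classes of 36 h B lay above the range of that class at 48 h, while the ratio was steeper at 48 h. The transcription factor gene Foxq1 stood at 15.8 and 14.01 CPM and at 11.03 and 7.91 CPM at 36 h, and at 20.4 to 71.2 CPM and 7.46 to 20.5 CPM at 48 h (-1.32, SE 0.18). Mki67, the proliferation antigen, had 42 and 48 UMIs and 18 and 47 UMIs in the classes of 36 h (6.97 and 5.603 CPM, 2.80 and 5.81 CPM), and stood at 6.64 to 16.6 CPM in periportal and 21.6 to 56.1 CPM in portal-poor spots at 48 h (1.55, SE 0.31, edgeR adjusted p = 0.0031). Without 36 h A the Mki67 difference did not pass (0.73, edgeR adjusted p = 0.47). Egr1, an immediate early transcription factor, went from 4.81 and 15.9 CPM and 11.6 and 18.9 CPM at 36 h to 32.5 to 112 CPM and 21.5 to 52.4 CPM at 48 h, and its call was lost without 36 h A (-1.29, edgeR adjusted p = 0.24). Of the catabolic amino acid genes 11 of 15, of the urea cycle genes 6 of 8 and of the gluconeogenesis genes 4 of 7 had a smaller class difference at 36 h, with list medians of 1.59, 1.54 and 1.61 at 48 h. Of the Kupffer cell and the G1 and S phase genes, 5 of 8 and 5 of 20 had a larger one, with list medians of -1.09 and -1.34 at 48 h. Among all 13553 genes tested, 654 had a smaller and 325 a larger class difference than at 48 h. Without 36 h A 234 genes were called against 48 h.

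**Figure D5:**
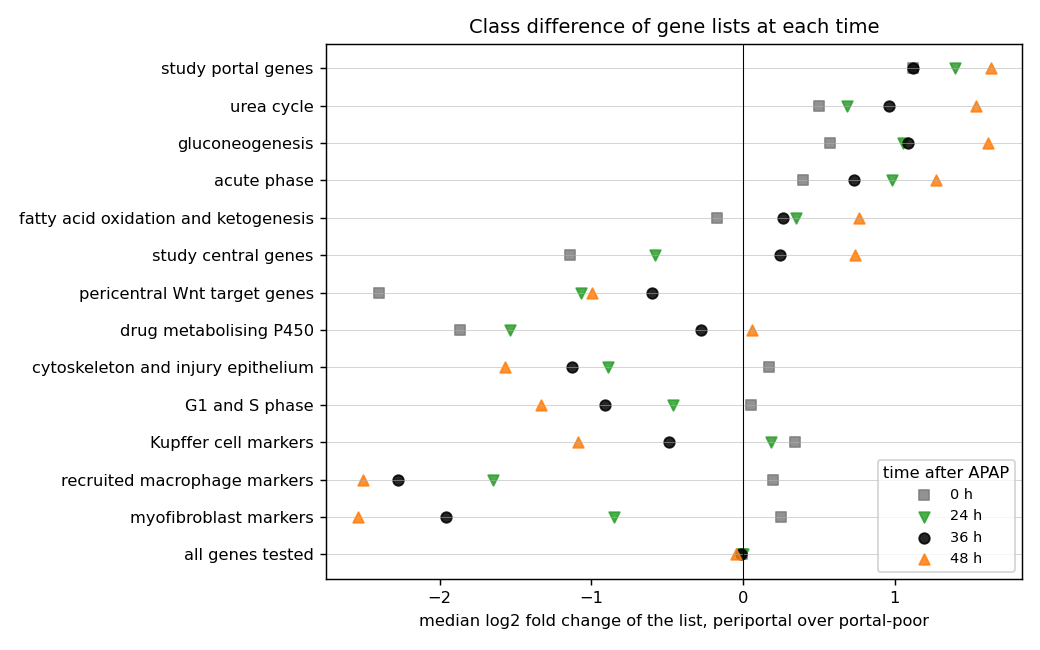
Median log2 fold change of 13 gene lists, periportal over portal-poor spots, at 0 h (grey squares), 24 h (green triangles), 36 h (black circles) and 48 h (orange triangles), with the median of all genes tested in the bottom row. The central genes pass from -1.14 at 0 h to 0.24 at 36 h and the recruited macrophage markers from 0.20 to -2.28. The points are medians over genes and carry no error.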

How the data were processed

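Unique molecular identifier (UMI) counts per gene and spot were deposited for 11 mouse liver sections. Per the labels and methods, the authors made these counts with Space Ranger (version 1.0.0) against mm10. Isolated spots that the authors removed by hand were not removed here. Counts were summed per section and class and tested in edgeR (4.0.16, R 4.3.3) with TMM scaling, filterByExpr, robust quasi-likelihood and Benjamini-Hochberg adjustment. The model held section as a block and a class effect per time over 22 class sums. The 4 index genes stayed in library sizes and were not tested. Class sums of 36 h held 6083224 to 7095275 UMIs. CPM are per 1000000 of the TMM-scaled total, and values of the index genes and of the 5 rank bins per 1000000 UMIs. Scripts were tested on simulated data. Alternatives were DESeq2 (1.42.0), scaling, filter, class size, index and single sections. Named genes were the 12 most raised and 12 most lowered of those called, of 1 sign in both sections and with a mean of at least 20 CPM, 4 per direction for each other time, middle-rank calls, and up to 5 called or most abundant members per list. Members and lists were chosen with earlier results of these data known. Of 344 listed genes, 343 were matched. Gene coordinates are from GENCODE (GRCm38). Both classes of a section come from the same tissue, so section pairs them. Results of some list members are not reported here.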

Additional observations from a re-analysis of the deposited data

Results flagged for a closer look

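The named differences between the class effect at 36 h and that at another time each passed the edgeR interaction test (adjusted p from 6.94e-09 for Glul to 0.0256 for Egr1). They are given as log2 differences, 36 h minus the other time, and the 3 comparisons share the 36 h sections. Within hepatocyte-rich spots 2 of the 8 named differences from 0 h, 3 of 8 from 24 h and 1 of 8 from 48 h still passed, and with no replicate block 3, 0 and 0 of 8 did.

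Against 0 h, the difference was 3.55 for Slc1a2, 2.65 for Mup17, 2.35 for Mup9 and 2.27 for Glul. It was -5.83 for Gpnmb, -3.98 for Mmp12, -3.72 for Acta2 and -2.81 for S100a4. Gpnmb had 0 to 2 UMIs in a class at 0 h, so the size of its difference depends on the prior count of the model and is no bound. The difference of Gpnmb did not pass without replicate 3 or 4 of 0 h (edgeR adjusted p = 0.19 and 0.063) or with another class size, index or ranking, and with classing by neighbours that of Mmp12 did not pass either (edgeR adjusted p = 0.25). Those of Slc1a2 and Mup17 did not pass without 36 h A, nor that of Mup17 without 36 h B. The Mup genes share reads with near-identical copies.

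Against 24 h, the difference was 2.20 for Hspa1b, 2.08 for Akr1c19, 2.06 for Acaa1b and 1.98 for Glt1d1, a glycosyltransferase-like gene. It was -1.80 for Nucb2, a calcium-binding protein, -1.61 for Ccdc134, -1.48 for Col3a1 and -1.47 for Nans, which makes sialic acid. Nucb2 stood at 54.6 and 28.3 CPM and at 31.9 and 16.5 CPM in periportal and portal-poor spots at 24 h, and at 14.8 and 32.5 CPM and at 12.3 and 17.1 CPM at 36 h, a turn in both sections. Without 24 h A the difference of Glt1d1 did not pass (1.48, edgeR adjusted p = 0.18).

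Against 48 h, the difference was 1.68 for Igfbp3, a carrier of insulin-like growth factors, 1.55 for Mki67, 1.45 for the circadian gene Noct and 1.26 for Olfml3. It was -1.73 for Cyp4a10, -1.67 for Egr1, -1.32 for Foxq1 and -1.32 for Pck1. Noct stood at 21.4 and 11.3 CPM and at 84.3 and 30.0 CPM at 36 h and at 7.35 to 12.6 CPM over both classes at 48 h. Without 36 h A the differences of Mki67 and Egr1 did not pass, and without 36 h B that of Olfml3 did not (edgeR adjusted p = 0.065). Without 48 h C or 48 h D that of Egr1 did not pass (edgeR adjusted p = 0.076 and 0.051), and by DESeq2 those of Mki67 and Olfml3 did not. That of Egr1 was also lost with no filter, larger classes and classing by neighbours, and that of Olfml3 with 10% of spots per class. No section stood apart in the 8 groups of 4 sections checked at 48 h.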

How the results depend on the processing

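Of the counts at 36 h (2199 genes higher and 2158 lower in periportal spots), total-count scaling gave 877 and 5107, and hepatocyte-rich spots 352 and 320. The model with no replicate block gave 655 and 818. Leaving out 1 section gave 1270 to 2261 higher and 1043 to 2220 lower, both lowest without 36 h B. Against 0 h, 24 h and 48 h (3147, 392 and 979 genes), no replicate block gave 341, 0 and 0, and hepatocyte-rich spots gave 77, 39 and 17. Without 1 section these counts were 1737 to 3317, 79 to 457 and 234 to 1139. No filter gave 615 against 24 h, and 10% of spots per class gave 642 against 48 h. For genes highest in middle-rank spots (1), no filter gave 16, leaving out 1 section 0 to 1, and 0 were found under total-count scaling, 36 h sections only, no replicate block, 10% of spots per class and larger classes, scaled index genes, Cyp2f2 left out, a thinned ranking, hepatocyte-rich spots and classing by neighbours. Mt1 turned to 0.37 with no replicate block and, without 1 section, ranged from -1.52 without 36 h B to 0.61 without 36 h A. Within hepatocyte-rich spots Mgst1 turned to -0.052, Srebf1 to -0.032, Scd1 to -0.32, Ccna2 to 0.20, Thbd to 0.25, C1qb to 0.049 and Marco to 0.16. Of the named log2 fold changes at 36 h, 51 of 91 kept their direction and side of the threshold within hepatocyte-rich spots and 87 of 92 with classing by neighbours. The cause of these changes was not tested. Genes of a few UMIs per class are limited by depth.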
